A study of Rattus norvegicus with 287 samples.

Results

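The kidney of 5 obese Zucker Diabetic Fatty (ZDF) rats was set against 6 other tissues of rats bearing the same numbers, to describe which transcripts set this organ apart and in which segment of the nephron they belong. The kidney members are the 5 libraries titled as kidney of obese ZDF controls at 7 weeks, of 287 libraries in the series. The comparators are 30 libraries, 5 each of liver, muscle, pancreas, intestine, brain (hypothalamus in the series' design text) and blood. All 35 libraries come from male obese ZDF rats in the sham arm, which were anaesthetised with isoflurane and positioned for peripheral focused ultrasound (pFUS) of the porta hepatis without any energy being applied, with a label of 7 weeks. ZDF rats carry a defective leptin receptor and develop obesity and diabetes, and no lean kidney was included, so every value below belongs to an obese animal. The labels give neither the animals' age nor the region of kidney taken.

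Each nephron filters plasma at the glomerulus, whose podocytes form the filtration slit, and passes the filtrate through the proximal tubule (segments S1, S2 and S3), the thin limbs and thick ascending limb of the loop of Henle, the distal convoluted tubule, the connecting tubule and the collecting duct. The proximal tubule recovers most solutes through sodium-coupled carriers and secretes organic ions, the thick limb and distal tubule reabsorb salt, and the collecting duct holds principal cells, which handle water and sodium, and intercalated cells, which secrete acid or base. Each segment carries its own set of membrane transporters, so whole-organ RNA can be read by segment through genes known to mark each one.

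Levels are CPM (counts scaled to a common library size, here with TMM factors over the 35 libraries), in the order of kidneys 1 to 5 wherever 5 values are listed, and are not corrected for transcript length, so they compare one gene across libraries and not genes with each other. Kidney libraries held 10366886 to 16414362 counts, and those of the other tissues 9338963 to 43088790. Both genes named as kidney markers were high in every kidney. Umod, which encodes uromodulin, the main protein of normal urine, was at 1872, 359.7, 1125, 801 and 676 CPM, against 1.38 ± 1.41 (SD, n = 5) in pancreas, the closest other tissue. Lrp2, which encodes megalin, the endocytic receptor of the proximal tubule, was at 1089, 616, 1355, 1228 and 595 CPM, against 20.8 ± 2.90 in liver. The lowest kidney lay far above the highest of the 30 other libraries for both. Of all genes tested, 2.48% had all 5 kidneys above the 30 others. Markers of hepatocytes, striated muscle, pancreatic acinar cells and neurons were low in kidney. Their summed lists were at 4.12 to 8.41, 0.249 to 1.00, 0.0955 to 0.934 and 0.258 to 0.828 CPM. The summed enterocyte list was at 62.9 to 112 CPM. The single genes named next hold only part of these sums. Albumin (Alb) did not exceed 0.498 CPM in any kidney, the muscle creatine kinase gene Ckm 0.0356, the pancreatic lipase gene Pnlip 0.0555 and the neuronal gene Syt1 0.415, while Mb, Fabp2 and Snap25 were at 0 in all 5. Vil1, a brush border gene that the proximal tubule shares with enterocytes, was at 62.7 to 111 CPM. The summed red cell list ran from 290.0 to 1169 CPM, the leukocyte list from 18.4 to 67.9, the adipocyte list from 5.83 to 49.2, the adrenal cortex list from 0.350 to 1.75 and the urothelium list from 0.478 to 1.19, with Upk2, Upk3a and Krt5 at 0. The mitochondrial share of counts was 7.07%, 14.3%, 21.2%, 21.3% and 40.1% in kidneys 1 to 5.

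Kidney 2 stood apart from the other 4 kidneys, and its values bear on most results below. Of 187 kidney-enriched genes (at least 4-fold above each other tissue, adjusted p under 0.05) with a mean of at least 10 CPM in kidney, 142 were lowest in kidney 2 and 22 in kidney 5. The same count over all genes was not made, so the 142 are not shown to be particular to enriched genes. As unscaled shares of counts, the enriched genes together took 13.3%, 7.94%, 10.2%, 9.47% and 6.92% in kidneys 1 to 5, lowest in kidney 5. The TMM factor was largest in kidney 2 (2.98) and smallest in kidney 5 (1.86). Which kidney ranks lowest thus depends in part on the scaling. Havcr1, which encodes kidney injury molecule 1 and is switched on in damaged proximal tubule, was at 4.36, 334, 1.78, 46.0 and 2.28 CPM. Spp1 (osteopontin) was at 189, 6144, 90.8, 1359 and 76.9 CPM and Lcn2 (neutrophil gelatinase-associated lipocalin) at 4.52, 73.7, 2.60, 11.1 and 1.97. Kidney 2 was highest for each of these, and kidney 4 second. The summed proximal tubule S1 and S2 list was at 17009, 4316, 13382, 10764 and 9059 CPM, lowest in kidney 2, while the leukocyte list was at 21.6, 67.9, 24.4, 41.4 and 18.4, highest in kidney 2. Fewer cells of a type and less RNA per cell cannot be told apart in whole-tissue RNA.

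**Figure D1:**
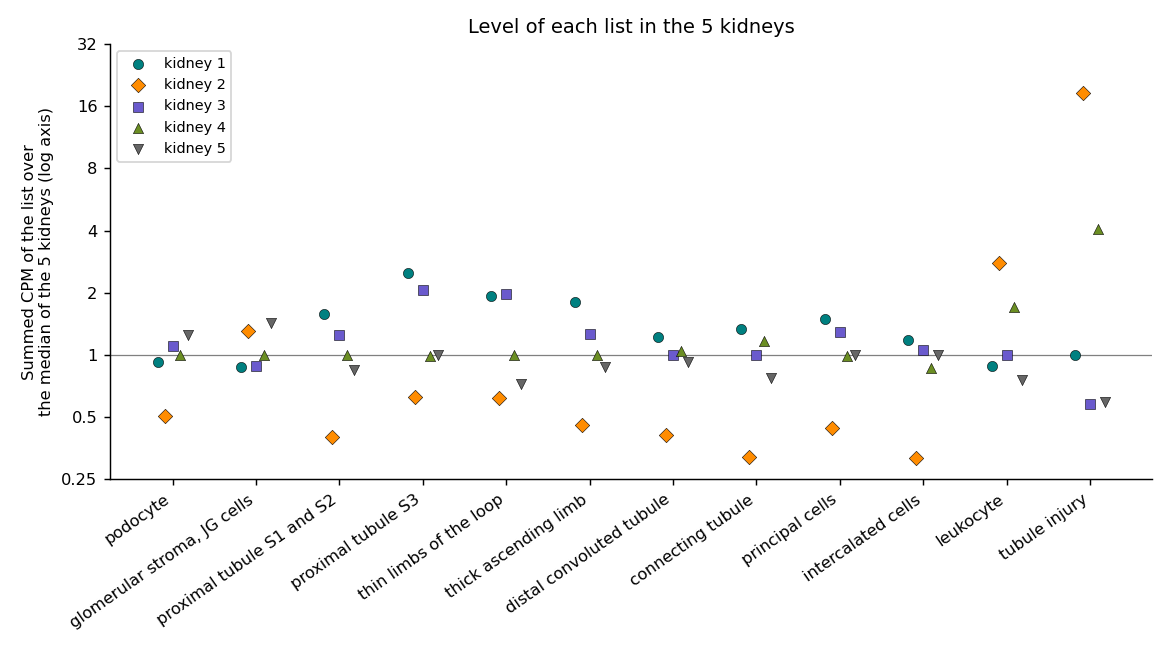
Summed CPM of each list in kidneys 1 to 5, divided by the median of the 5 (log axis, 1 point per kidney). Kidney 2 is the lowest point for every tubule list and for podocytes, and the highest for leukocyte and tubule injury genes.

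A gene was called kidney-enriched where its adjusted p was under 0.05 and its kidney level at least 4-fold higher (log2 fold change of at least 2) against each of the 6 tissues separately. Of 16514 genes tested, 281 met this (1.70%), 680 were higher in kidney than in each tissue at any size (4.12%) and 55 lower than in each (0.333%). The enriched genes took 9.56% ± 2.45 (SD, n = 5) of the counts of kidney libraries and at most 0.266% on average of those of another tissue (intestine). Brain was the closest other tissue for 71 of them, liver for 64, intestine for 51, muscle for 38, pancreas for 37 and blood for 20. Among solute carriers 27 of 346 tested Slc genes were enriched, including 7 of 15 Slc22 organic ion transporters. No ATP-binding cassette gene (0 of 43) and no Ugt gene (0 of 6) was enriched. With 1.70% of all genes enriched, 0 in families of this size says little about them. Against single tissues, the shares of all genes called higher and lower in kidney were 31.0% and 23.2% for liver, 36.2% and 27.0% for muscle, 34.4% and 25.6% for pancreas, 30.6% and 30.8% for intestine, 32.0% and 34.9% for brain and 39.4% and 23.1% for blood. With scaling by library size alone the share of calls that were higher in kidney moved from 57.2% to 88.3% for liver, 57.3% to 84.9% for muscle, 57.3% to 94.2% for pancreas and 63.0% to 96.6% for blood, but fell from 49.8% to 45.2% for intestine and from 47.8% to 39.5% for brain. The median log2 difference of all genes against blood moved from 0.51 to 4.36. Pancreas libraries were made with a total RNA kit and the other tissues with an mRNA kit, so kit and tissue cannot be told apart in that contrast. Without pancreas 333 genes were enriched, 275 of them among the 281.

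The 20 enriched genes with the widest gap to their closest tissue spanned the nephron. They were taken from those with a mean of at least 10 CPM whose 5 kidneys all lay above all 30 other libraries. Each had 0 counts in at least 1 tissue, and for 19 of them the fold is a lower bound, taken against 3 counts over the 5 libraries of the limiting tissue. Slc34a1, the renal sodium-phosphate cotransporter, was at 2423, 415, 1808, 1482 and 1369.7 CPM and at least 10635-fold above the limit that 0 counts in pancreas allows. Kap, the kidney androgen-regulated protein gene of the rodent proximal tubule, was at 658, 131, 607, 428 and 724 CPM and at least 2958-fold above the limit that 0 counts in blood allows. Cyp24a1, which inactivates vitamin D, was at 277, 202, 141, 172 and 87.9 CPM and at least 1021-fold above the limit that 0 counts in blood allows. Lying above every other library in all 5 kidneys was a condition of choice for these 3, met by 2.48% of all genes tested. Kidney 2 was lowest for Slc34a1 and Kap and kidney 5 for Cyp24a1. Cdh16, the kidney-specific cadherin of tubule epithelium, was at 655, 216, 377, 291 and 211 CPM. Gba3, a cytosolic beta-glucosidase gene, averaged 81.1 ± 31.9 CPM (SD, n = 5), Tmem174 87.0 ± 42.3 and Akr1c12l1, of the aldo-keto reductase family, 107 ± 72.0. Others of the 20 were Slc7a13, Aqp6, Atp6v1b1, Slc34a3, Slc22a12, Tmem213, Cldn16, Slc6a18, Bsnd, Tmem52b, Foxi1 and Aqp2, each described with its segment. DESeq2 placed 12 of the 72 enriched genes named here above its threshold, with largest adjusted p from 0.0566 to 0.328, namely Foxi1, Bsnd, Cyp24a1, Atp6v1b1, Tmem213, Pax2, Fxyd4, Trpv5, Slc7a13, Aqp6, Cldn16 and Avpr2.

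**Figure D2:**
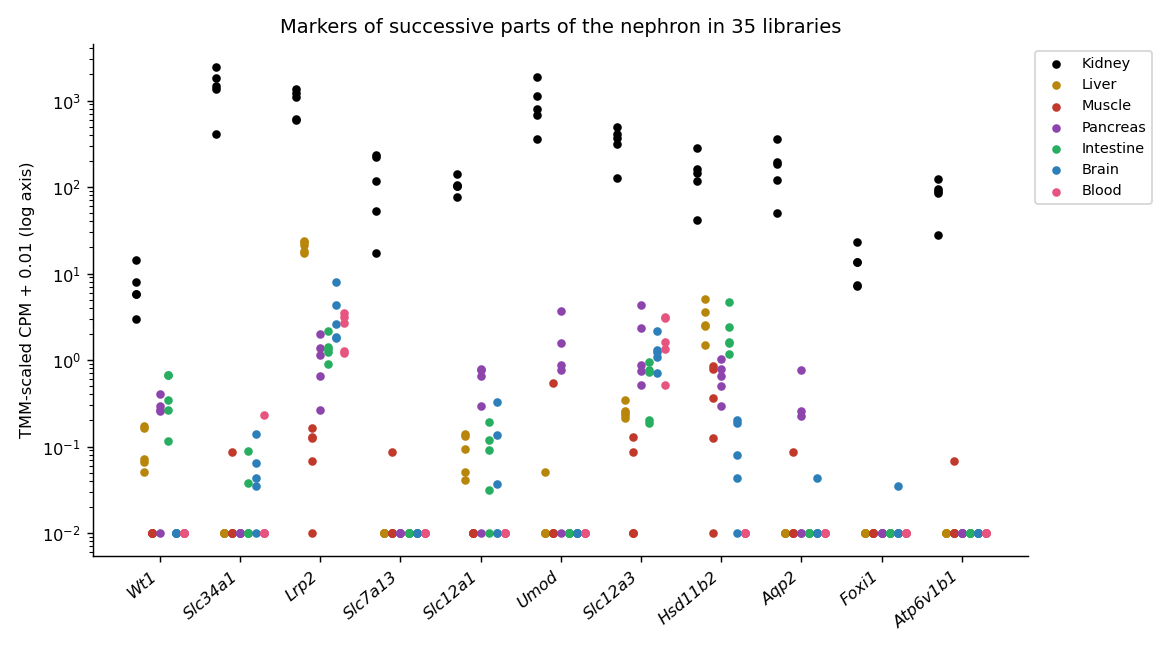
TMM-scaled CPM plus 0.01 (log axis) of 11 genes that mark successive parts of the nephron, 1 point per library, kidney in black and 6 other tissues in colour. The 5 kidney points lie above all 30 other points for each gene shown, as they do for 2.48% of all genes tested.

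Among 16 podocyte genes, all of which passed the filter on low counts, 4 were enriched and 5 more were higher in kidney than in each tissue by less than 4-fold, against 1.70% and 4.12% of all genes. The median of their smallest log2 fold change was 1.57, against -1.77 over all genes tested. Col4a3 and Col4a4 encode chains of the glomerular basement membrane collagen. Col4a4 was at 223, 91.8, 299, 244 and 209.6 CPM (log2 fold change 3.67 ± 0.32 (SE) over muscle, largest adjusted p = 2.30e-11), and Col4a3 at 40.1, 33.0, 77.3, 98.7 and 54.0 (log2 fold change 3.39 ± 0.30 (SE) over pancreas, largest adjusted p = 6.89e-11). The podocyte transcription factor gene Wt1 was at 7.88, 2.98, 5.72, 5.76 and 14.3 CPM (log2 fold change 4.18 ± 0.47 (SE) over intestine, largest adjusted p = 1.19e-06). These 3 lay above every non-kidney library, as did 8 of the 16 podocyte genes and 2.48% of all genes tested. Nphs1 (nephrin), of the filtration slit, fell short of 4-fold because of pancreas, where it was at 8.51 ± 1.86 CPM against 36.2 ± 18.5 in kidney (log2 fold change 1.96 ± 0.39 (SE) over pancreas, largest adjusted p = 1.03e-04). Podxl, Kirrel1, Npnt and Cdkn1c were likewise higher in kidney than in each tissue by less than 4-fold, and the closest tissue was muscle for Podxl, brain for Kirrel1 and Cdkn1c and intestine for Npnt. Clic5, Ptpro, Synpo, Tcf21, Plce1 and Magi2 were not higher than in each tissue. Kidney 5, not kidney 1, was highest for Nphs1 and Wt1. Without rat 2, 7 podocyte genes were enriched.

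Of 11 tested genes of the glomerular stroma and juxtaglomerular cells 1 was enriched (9.09%, against 1.70% of all genes). Plat, Pdgfrb and Emcn were higher in kidney than in each tissue by less than 4-fold. Pdgfrb, the mesangial and pericyte receptor gene, was at 25.5, 80.3, 29.5, 44.6 and 75.5 CPM, highest in kidneys 2 and 5. Plat lost the call without rat 5 (adjusted p = 0.146). The other 7 (Tek, Gucy1a1, Akr1b8, Ehd3, Itga8, Gata3 and Rgs5), which are shared with vessels and other organs, were not higher than in each tissue, and Sost did not pass the filter.

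The proximal tubule S1 and S2 list had 27 genes tested, of which 10 were enriched (37.0%, against 1.70% of all genes). A further 7 were higher than in each tissue by less than 4-fold. With these, 17 were higher than in each tissue at any size, against 4.12% of all genes. The enriched genes were carriers and endocytic or metabolic genes of the brush border cell. Slc34a1 and Lrp2 are given above. Miox, the first enzyme of inositol breakdown, was at 1185, 141, 832, 448 and 557 CPM (log2 fold change 5.28 ± 0.43 (SE) over liver, largest adjusted p = 3.80e-10). Slc5a2, the low-affinity glucose carrier that recovers most filtered glucose, was at 333, 161, 254, 287 and 282 CPM (log2 fold change 7.80 ± 0.40 (SE) over muscle, largest adjusted p = 8.61e-14). Both were above all 30 other libraries, as were 10 of the 27 tested genes and 2.48% of all genes tested. Slc5a2 varied less between kidneys than Miox. Of the organic anion carriers of the basolateral membrane, Slc22a6 was at 831, 114, 674, 446 and 475 CPM (log2 fold change 6.98 ± 0.67 (SE) over brain, largest adjusted p = 2.68e-08) and Slc22a8 at 969.8, 132, 644, 502 and 494 (log2 fold change 2.68 ± 0.48 (SE) over liver, largest adjusted p = 4.78e-05). Liver held 85.7 ± 57.3 CPM of Slc22a8, and the groups overlapped for this gene. Slc22a12, which exchanges urate at the apical membrane, was at 267, 40.2, 254, 111 and 113 CPM, at least 911-fold above the limit that 0 counts in blood allows. Slc22a2 carries organic cations and averaged 117 ± 83.4 CPM (log2 fold change 8.05 ± 0.70 (SE) over brain, largest adjusted p = 5.80e-10), Slc13a3 carries dicarboxylates and averaged 593 ± 254 (log2 fold change 5.02 ± 0.37 (SE) over liver, largest adjusted p = 6.29e-12), and Slc34a3, the second renal phosphate carrier of this family, averaged 95.8 ± 37.8.

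The 17 other proximal genes had intestine as the closest tissue for 7, liver and pancreas for 4 each, and brain and blood for 1 each. Pck1, the entry enzyme of gluconeogenesis, was at 4186, 568, 2692, 2076 and 2139.8 CPM in kidney and 2536 ± 819 (SD, n = 5) in liver, a log2 difference of -0.10 ± 0.60. Gatm, which makes the creatine precursor, was at 753 ± 232 CPM in kidney and 675 ± 60.9 in pancreas. Slc6a19, the neutral amino acid carrier, was at 141 ± 57.3 CPM in kidney and 171 ± 95.0 in intestine. For these 3 the kidney did not differ from the closest tissue beyond the spread of the libraries. Cubn, Amn, Pdzk1, Slc5a12, Slc7a7, Slc4a4 and Ggt1 were higher in kidney than in each tissue by less than 4-fold. The call was lost for Cubn and Slc5a12 without rat 2 (largest adjusted p = 0.0629 and 0.0601) and for Ggt1 without rat 1 (0.26). It was also lost for Slc5a12 without rat 5 (0.0645) and for Ggt1 without rat 3 (0.132). Cubn and Amn encode the cubilin receptor and its partner, with which intestine also takes up cobalamin. Cubn was at 248 ± 68.6 CPM in kidney and 81.8 ± 87.1 in intestine (log2 fold change 1.87 ± 0.62 (SE) over intestine, largest adjusted p = 0.0115), whereas megalin, which acts with cubilin in the tubule, was at 1.40 CPM in intestine. Fbp1, Slc3a2, Slc7a8, Slc17a3, Slc2a2, Slc9a3 and Cyp27b1 were not higher than in each tissue.

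For the straight S3 segment 4 of 11 tested genes were enriched (36.4%, against 1.70% of all genes). Slc7a13, an S3 amino acid carrier, was at 225, 17.4, 236, 52.2 and 116 CPM, at least 751-fold above the limit that 0 counts in blood allows. Slc6a18, a glycine carrier, was at 270.1, 84.2, 206, 109 and 104 CPM, at least 898-fold above the limit that 0 counts in blood allows. Slc3a1, the cystine carrier subunit, was at 1219, 329, 962, 537 and 448 CPM (log2 fold change 2.88 ± 0.32 (SE) over intestine, largest adjusted p = 7.91e-08), and Acy3, which deacetylates mercapturic acids, at 489, 72.2, 311, 144 and 194 (log2 fold change 2.93 ± 0.38 (SE) over liver, largest adjusted p = 1.20e-07). Kidneys 1 and 3 were the highest for all 4 and kidney 2 the lowest. The summed S3 list was at 2836, 713, 2337, 1121 and 1136 CPM. Slc7a9, the light subunit that pairs with Slc3a1, and Slc5a8 were higher than in each tissue by less than 4-fold, with intestine closest, but not without rat 3 (largest adjusted p = 0.0627 and 0.0532). Slc7a9 also lost the call without rat 1 (0.0794). Aadat, Agt, Slc5a1, Slc22a7 and Cyp7b1 were not higher than in each tissue. Slc22a7, an anion carrier of this segment, was at 9.80, 0.286, 3.52, 0.510 and 0.882 CPM, against 79.2 ± 9.18 in liver.

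The promoters of these carriers were read for the binding motif of hepatocyte nuclear factor 4 (HNF4), a transcription factor of proximal tubule and liver. Promoters were 300-base windows of RefSeq on the GRCr8 build, from 250 bases before the annotated start to 50 after it, matched by symbol for 10856 tested protein-coding genes, of which 177 were kidney-enriched. The HNF4 motif CAAAGTCCA with up to 1 mismatch, on either strand, was in 22 of 177 enriched promoters (12.4%) and in 7.55% of all 10856. The share is a description without a test, and the motif was chosen after others had been tried on the same promoters. With no mismatch allowed, the HNF4 motif was in 1 of 177 enriched promoters (0.565%) and in 0.4145% of all 10856. The other motifs given here were searched only at that stricter setting. Of those reported here, the spaced motif of TFCP2L1 was in 6.78% of enriched and 4.23% of all promoters, TGTTTAC of FOXI factors in 3.39% and 2.51%, AACCGGTT of GRHL factors in 0.565% and 0.203%, and TCAAGGTCA of ESRR factors in 0% and 0.212%. By segment, 3 of 9 enriched S1 and S2 genes with a promoter in the table held the HNF4 motif and 2 of 3 of S3, 1 of 7 of principal cells (Avpr2) and 0 of the 5 other lists with a promoter in the table. The windows of 60 bases below are those 5 proximal tubule genes, of which Slc3a1 matched every letter and the others had 1 mismatch. Capitals mark the motif, which reads on the opposite strand in all but Lrp2.
Slc3a1: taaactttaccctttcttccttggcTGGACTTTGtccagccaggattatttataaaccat
Slc34a1: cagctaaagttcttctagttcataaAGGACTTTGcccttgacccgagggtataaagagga
Lrp2: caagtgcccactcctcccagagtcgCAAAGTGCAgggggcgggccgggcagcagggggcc
Slc13a3: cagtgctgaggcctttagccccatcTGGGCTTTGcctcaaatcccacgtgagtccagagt
Slc6a18: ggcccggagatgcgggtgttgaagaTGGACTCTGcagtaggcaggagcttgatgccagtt
They lie in GRCr8 as follows, Slc3a1 at chr6:15394804-15394863 on the minus strand, Slc34a1 at chr17:9239016-9239075 on the minus strand, Lrp2 at chr3:74754669-74754728 on the minus strand, Slc13a3 at chr3:174624059-174624118 on the minus strand and Slc6a18 at chr1:31436470-31436529 on the plus strand. A match describes the letters in the window and not binding.

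Of 8 tested genes of the thin limbs of the loop 1 was enriched (12.5%, against 1.70% of all genes). A list of 8 is too short to set this segment against the others. Aqp1, the water channel of proximal tubule and descending limb, was at 1092, 322, 1127, 562 and 397 CPM in kidney but 2936 ± 1267 in blood, whose red cells carry it. With scaling by library size alone its smallest log2 fold change was 2.05, with the kidney higher. The medullary urea transporter gene Slc14a2, present under 2 gene identifiers, did not exceed 0.0572 CPM in any kidney and did not pass the filter. Akr1b1, Fst, Slc4a11, Proser2, Epha7 and Bst1 were not higher than in each tissue. The median of the smallest log2 fold change over the 8 genes was -2.65, below the -1.77 of all genes.

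The thick ascending limb and macula densa list had 9 of 17 tested genes enriched (52.9%, against 1.70% of all genes). The median of their smallest log2 fold change over the 17 was 4.01. Slc12a1, the loop-diuretic target that carries sodium, potassium and chloride, was at 103, 105, 104, 141 and 77.5 CPM (log2 fold change 7.76 ± 0.52 (SE) over pancreas, largest adjusted p = 1.60e-11), and kidney 5, not kidney 2, was lowest. Kcnj1, the potassium channel that recycles potassium to it, was at 47.1, 25.2, 41.4, 45.6 and 35.9 CPM (log2 fold change 7.39 ± 0.53 (SE) over blood, largest adjusted p = 2.20e-12). Bsnd (barttin), a chloride channel subunit gene, was at 32.6, 6.58, 38.0, 21.2 and 27.2 CPM, at least 146-fold above the limit that 0 counts in blood allows. Each of these 3 was above every other library, as were 9 of the 17 tested genes and 2.48% of all genes tested.

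Cldn16, a claudin of the paracellular calcium and magnesium pathway in the same segment, was at 12.4, 9.42, 13.2, 11.7 and 12.2 CPM with 0 counts in all 30 other libraries, at least 68.5-fold above the limit that 0 counts in blood allows, and its partner Cldn19 was at 9.77, 9.19, 6.65, 5.16 and 5.19 (log2 fold change 4.48 ± 0.61 (SE) over brain, largest adjusted p = 3.73e-06). Cldn16 varied little between the 5 kidneys. Casr, the calcium-sensing receptor gene, was at 5.91, 3.49, 18.8, 11.5 and 4.00 CPM (log2 fold change 4.01 ± 0.70 (SE) over pancreas, largest adjusted p = 3.56e-05). Cldn14, the claudin that opposes Cldn16, was at 0.0278, 0.315, 0, 0.0318 and 0 CPM in kidney and 24.8 ± 10.8 in liver. Tmem207 was also enriched. Cldn10 and Tmem72 were higher than in each tissue by less than 4-fold. Egf, a growth factor gene of the thick limb and distal tubule, was at 186, 13.0, 169.8, 134 and 55.4 CPM and overlapped pancreas (76.8 ± 20.2). Ppp1r1a, Ptger3, Irx1 and Nos1, the last the neuronal nitric oxide synthase gene of the macula densa, were not higher than in each tissue.

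In the distal convoluted tubule 4 of 9 tested genes were enriched (44.4%, against 1.70% of all genes). Emx1 was higher by less than 4-fold, though not without rat 1, 3 or 5 (adjusted p = 0.0506 to 0.0613). Slc12a3, the thiazide-sensitive sodium chloride carrier, was at 494, 128, 409, 372 and 312 CPM (log2 fold change 7.43 ± 0.50 (SE) over blood, largest adjusted p = 1.00e-13). Kcnj16, a basolateral potassium channel subunit, was at 226, 81.6, 179, 199.8 and 149.6 CPM (log2 fold change 4.48 ± 0.43 (SE) over brain, largest adjusted p = 5.86e-10), with brain closest. Wnk4, the kinase that regulates the sodium chloride carrier, was at 50.7, 37.5, 48.7, 49.5 and 59.1 CPM (log2 fold change 3.05 ± 0.31 (SE) over intestine, largest adjusted p = 8.88e-10) and had the narrowest spread of the enriched genes named here for this segment. Tmem52b averaged 70.1 ± 36.6 CPM. Kcnj10, the channel that pairs with Kcnj16, was at 3.04 ± 2.33 CPM in kidney and 21.3 ± 6.60 in brain. Pvalb, a parvalbumin marker of the early distal tubule, was at 0 in all 5 kidneys and at 4520.5 ± 2044 CPM in muscle. Cnnm2 and Trpm6, genes of magnesium handling, were not higher than in each tissue.

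Of 6 connecting tubule genes tested 3 were enriched (50%, against 1.70% of all genes), Hsd11b2, Kl and Trpv5. Hsd11b2, which protects the mineralocorticoid receptor from cortisol and corticosterone, was at 279, 42.0, 162, 116 and 145 CPM (log2 fold change 5.56 ± 0.44 (SE) over liver, largest adjusted p = 2.36e-11). Kl (klotho), the coreceptor of a phosphate-lowering fibroblast growth factor, was at 84.0, 28.1, 106, 85.1 and 37.0 CPM (log2 fold change 3.10 ± 0.41 (SE) over brain, largest adjusted p = 1.77e-07). Trpv5, the apical calcium channel, was at 3.69, 12.0, 2.77, 8.53 and 3.01 CPM and was highest in kidney 2. Its groups overlapped with blood (log2 fold change 2.35 ± 0.68 (SE) over blood, largest adjusted p = 0.00724), and without rat 2 it fell short of 4-fold (log2 fold change 1.98). Calb1, a calcium buffer gene, was at 144, 36.9, 100.4, 225 and 115 CPM (log2 fold change 1.99 ± 0.35 (SE) over brain, largest adjusted p = 1.51e-05), just under 4-fold. Slc8a1 and S100g were not higher than in each tissue.

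Of 10 principal cell genes tested 8 were enriched (80%, against 1.70% of all genes). Aqp2, the vasopressin-regulated water channel, was at 356, 50.6, 186, 121 and 196 CPM (log2 fold change 9.54 ± 0.40 (SE) over pancreas, largest adjusted p = 2.97e-13). Aqp3, the basolateral water channel, was at 85.8, 13.8, 64.2, 31.8 and 48.1 CPM (log2 fold change 3.34 ± 0.58 (SE) over intestine, largest adjusted p = 3.62e-05). The vasopressin receptor gene Avpr2 was at 11.7, 1.92, 6.36, 3.79 and 4.26 CPM, at least 32.6-fold above the limit that 0 counts in blood allows. Kidney 1 was highest and kidney 2 lowest for all 3. All 3 subunits of the epithelial sodium channel were enriched. Scnn1b was at 56.9, 16.1, 35.1, 36.0 and 38.3 CPM (log2 fold change 6.71 ± 0.38 (SE) over muscle, largest adjusted p = 1.89e-13), Scnn1g averaged 23.8 ± 8.58 (log2 fold change 6.95 ± 0.48 (SE) over brain, largest adjusted p = 1.04e-10) and Scnn1a 37.1 ± 18.3 (log2 fold change 2.52 ± 0.40 (SE) over blood, largest adjusted p = 2.40e-06). Tfcp2l1, a transcription factor of the collecting duct, was at 69.2, 86.9, 221, 189 and 71.2 CPM (log2 fold change 3.37 ± 0.32 (SE) over intestine, largest adjusted p = 9.36e-10), and Fxyd4, a modulator of the sodium pump, averaged 6.45 ± 3.50. Aqp4, also found in principal cells, was at 4.67 ± 1.67 CPM in kidney and 183 ± 90.6 in brain. Hoxd8 was not higher than in muscle, and Elf5 did not pass the filter.

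Intercalated cells had 13 of 17 tested genes enriched (76.5%, against 1.70% of all genes). The median of their smallest log2 fold change over the 17 was 5.67. Foxi1, the transcription factor that specifies these cells, was at 13.7, 7.39, 23.0, 7.07 and 13.5 CPM, at least 75.1-fold above the limit that 0 counts in blood allows. Slc26a4 (pendrin), the chloride-bicarbonate exchanger of base-secreting cells, was at 44.6, 11.4, 41.6, 41.7 and 54.7 CPM (log2 fold change 5.67 ± 0.38 (SE) over brain, largest adjusted p = 2.18e-10). Slc4a9, a bicarbonate carrier of the same cells, was at 20.3, 6.44, 22.9, 24.5 and 28.7 CPM. The ammonia channels Rhcg and Rhbg were at 113, 12.2, 62.0, 40.9 and 56.7 and 44.1, 6.30, 38.6, 21.1 and 25.0 CPM, the latter with intestine closest (log2 fold change 2.13 ± 0.37 (SE) over intestine, largest adjusted p = 1.07e-05; 1.94 without rat 1 or rat 3, under 4-fold). Aqp6 was at 42.8, 12.2, 37.0, 24.8 and 18.0 CPM and Tmem213 averaged 15.5 ± 10.9 CPM, both with 0 counts in all 30 other libraries. Hmx2 averaged 4.31 ± 1.82 CPM (log2 fold change 4.69 ± 0.71 (SE) over intestine, largest adjusted p = 4.20e-05). Slc4a1, the exchanger of acid-secreting cells that red cells also carry, was at 44.9, 22.4, 85.8, 61.2 and 111 CPM in kidney and 6667 in blood, and the kidney share from blood was not tested. Slc26a7 was higher than in each tissue by less than 4-fold, but not without rat 1, 3, 4 or 5 (adjusted p = 0.104 to 0.172). Insrr and Dmrt2 were not higher than in each tissue, and Oxgr1 did not pass the filter.

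**Figure D3:**
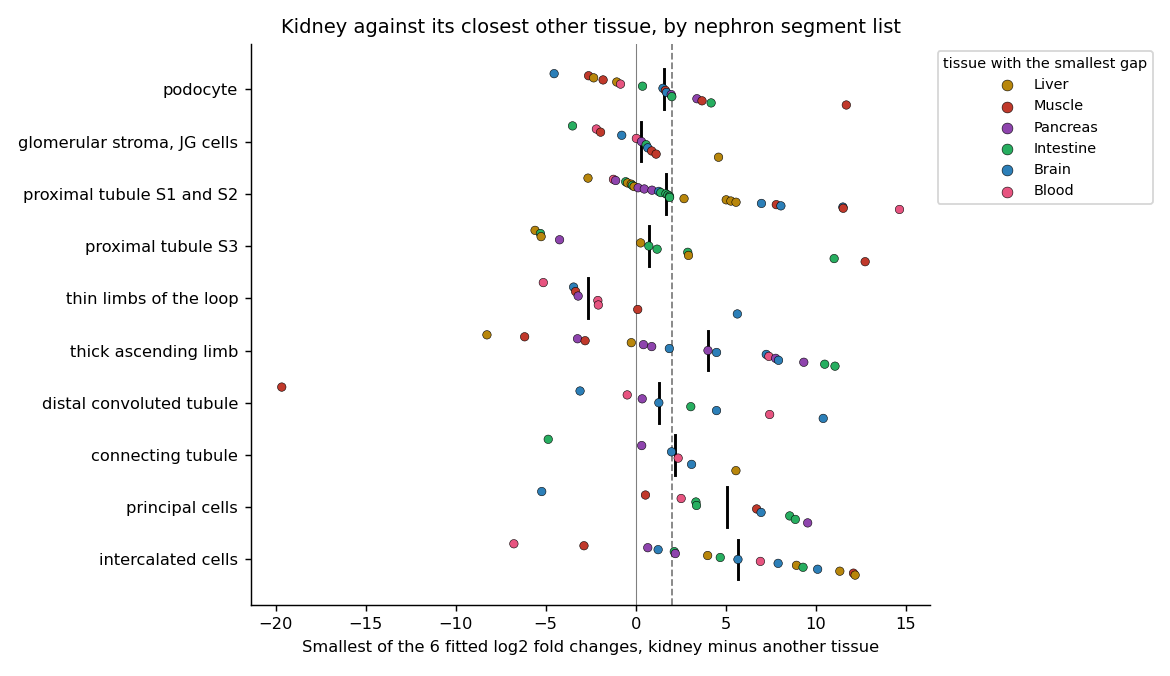
Smallest of the 6 fitted log2 fold changes of each tested member of the 10 segment lists, coloured by the tissue it was set against. Black bars are list medians and the dashed line is the threshold of 2; the medians of principal and intercalated cells are the furthest to the right, and that of the thin limbs is below 0.

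Gene families showed which copy of a machine the kidney holds apart. The V-ATPase is the proton pump that acidifies lysosomes in every cell and urine in intercalated cells. Of 20 tested subunit genes 5 were enriched (25%, against 1.70% of all genes) and 15 were not. Atp6v1b1 was at 94.9, 28.1, 90.6, 84.4 and 122 CPM, at least 488-fold above the limit that 0 counts in blood allows. Atp6v0a4 was at 325, 95.3, 285, 238 and 170.0 CPM (log2 fold change 7.90 ± 0.49 (SE) over brain, largest adjusted p = 3.44e-13), and Atp6v1g3 averaged 37.6 ± 17.5 (log2 fold change 6.92 ± 0.50 (SE) over blood, largest adjusted p = 8.93e-09). Atp6v0d2 and Atp6v1c2 averaged 13.7 ± 4.47 and 7.20 ± 3.05 CPM. Their paralogues were not enriched. Atp6v1b2 was at 230.4 ± 62.6 CPM in kidney and 308 ± 61.2 in brain, and Atp6v0a1 at 37.9 ± 5.86 and 230.3 ± 46.2. Atp6v1g2 was near 0 in kidney (0.646 ± 0.203 CPM) and at 162 ± 38.0 in brain. Brain was the closest tissue for 11 of the 15 subunit genes not enriched. These 15 were Atp6v0c, Atp6v1b2, Atp6v0d1, Atp6v1a, Atp6v1e1, Atp6v1g1, Atp6v0b, Atp6v1f, Atp6v1d, Atp6v0e1, Atp6v0a1, Atp6v1c1, Atp6v0e2, Atp6v1h and Atp6v1g2.

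Of 11 aquaporin genes tested, 3 were enriched, Aqp2, Aqp3 and Aqp6 (27.3%, against 1.70% of all genes). Aqp7, an aquaglyceroporin of the S3 segment, was higher by less than 4-fold at 82.1, 28.5, 56.6, 36.2 and 36.7 CPM. It lost that call without rat 1, 2, 3 or 5 (adjusted p = 0.0587 to 0.262). The others each peaked elsewhere. Aqp8 and Aqp9 were at 120.4 ± 19.7 and 117 ± 9.09 CPM in liver, Aqp12a at 397 ± 39.0 in pancreas and Aqp11 at 28.7 ± 4.98 in intestine. Of 16 claudin genes tested, 2 were enriched (Cldn16 and Cldn19, 12.5%) and Cldn10 was higher by less than 4-fold. Cldn2, the leaky claudin of the proximal tubule, was at 151, 182, 118, 173 and 119 CPM and overlapped liver (122 ± 29.5). Intestine was closest for Cldn3, Cldn4, Cldn7, Cldn15 and Cldn23, liver for Cldn1, Cldn12 and Cldn14, brain for Cldn5, Cldn9 and Cldn11, and pancreas for Cldn8. Of 7 cation chloride carriers 2 were enriched, Slc12a1 and Slc12a3 (28.6%). Slc12a2, the secretory counterpart of Slc12a1, was at 4.94, 6.96, 4.23, 6.81 and 4.77 CPM, against 165 ± 26.8 in pancreas, and Slc12a4, Slc12a5 and Slc12a7 were not higher than in each tissue. Of 5 sodium phosphate carriers Slc34a1 and Slc34a3 were enriched (40%). Slc34a2, better known from lung and intestine, was at 29.2, 211, 18.3, 51.6 and 6.44 CPM, highest in kidney 2, and Slc20a1 and Slc20a2 were not higher than in each tissue.

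**Figure D4:**
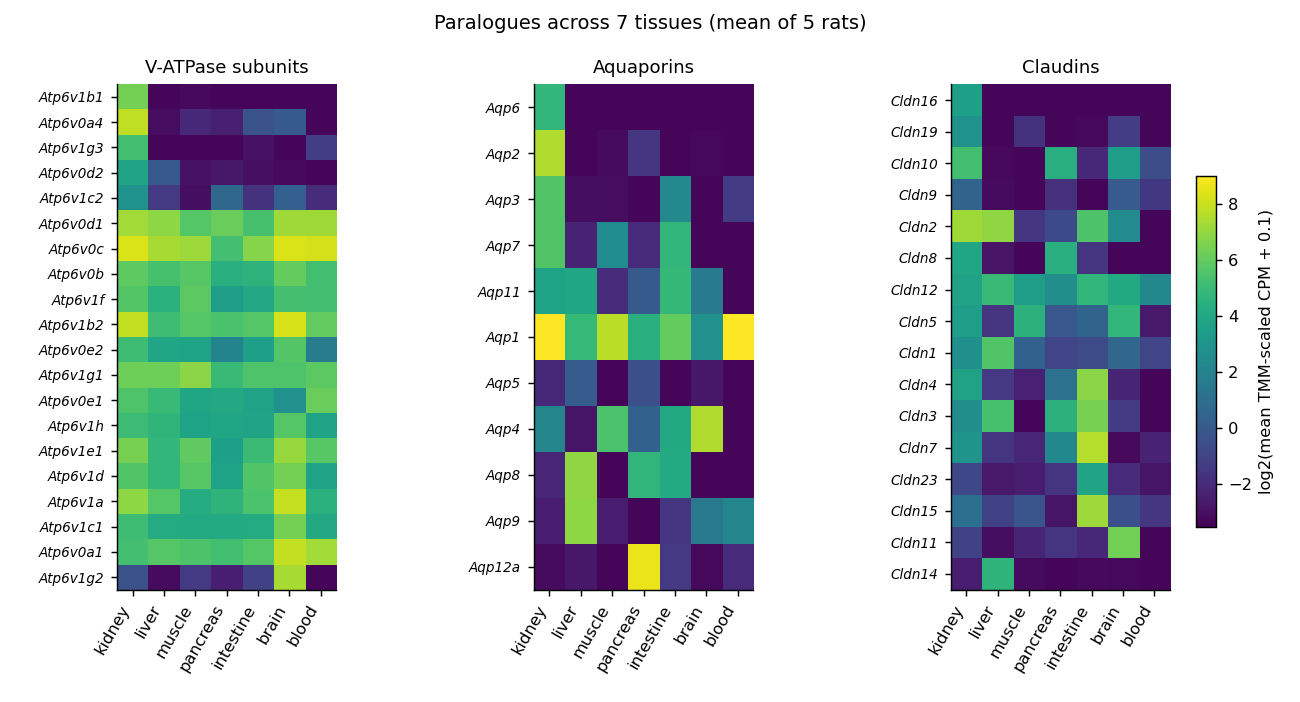
Mean TMM-scaled CPM of 5 rats, as log2(CPM + 0.1), for tested V-ATPase subunits, aquaporins and claudins in 7 tissues, with genes ordered by their smallest log2 fold change. The top rows of each panel are bright in the kidney column and dark elsewhere, and the lower rows are brightest in another tissue.

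Transcription factors of the kidney divided into 11 enriched of 23 tested (47.8%, against 1.70% of all genes) and a group shared with neighbours. Pax8 and Pax2 act in the formation of the nephron. Pax8 was at 82.2, 69.1, 110.0, 58.0 and 72.5 CPM (log2 fold change 6.73 ± 0.52 (SE) over liver, largest adjusted p = 7.67e-12) and Pax2 at 4.80, 3.32, 5.19, 4.33 and 4.00, at least 25.1-fold above the limit that 0 counts in blood allows. Emx2 was at 16.0, 16.0, 11.1, 17.5 and 14.9 CPM (log2 fold change 2.43 ± 0.36 (SE) over brain, largest adjusted p = 8.94e-06). Pax2 and Emx2 differed by at most 1.58-fold between kidneys. Tfap2b, Irx3, Lhx1 and Esrrb were also enriched, at 7.43 ± 3.62, 6.87 ± 2.72, 3.61 ± 1.55 and 1.57 ± 1.04 CPM, as were Tfcp2l1, Foxi1 and Wt1. Without rat 3 Irx3 and Esrrb fell short of 4-fold (log2 fold change 1.71 and 1.74). Hnf4a was at 336 ± 119 CPM in kidney and 451 ± 51.2 in liver, not higher than in liver. Pou3f3, a factor of the loop and distal tubule, was at 14.6 ± 1.08 CPM in kidney and 15.6 ± 2.69 in brain, with 0 counts in intestine, muscle, pancreas and blood. Emx1 was higher by less than 4-fold, and Esrrg, Ppara, Irx1, Irx2, Sim1, Hnf4g, Osr1 and Osr2 were not higher than in each tissue. Outside the list, 7 of 23 tested Hox genes were enriched (30.4%), with Hoxb7 at 14.2 ± 3.59 CPM (log2 fold change 4.10 ± 0.35 (SE) over intestine, largest adjusted p = 1.13e-09).

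Among genes of renal hormones and vitamin D, 5 of 13 tested were enriched, among them Cyp24a1, Kl, Casr and Pth1r, the parathyroid hormone receptor gene (283, 52.6, 223, 142 and 199 CPM; log2 fold change 4.27 ± 0.33 (SE) over liver, largest adjusted p = 1.09e-11). Cyp27b1, which activates vitamin D, was at 3.08, 1.17, 4.27, 3.95 and 4.00 CPM and overlapped pancreas (2.30 ± 0.988). The vitamin D receptor gene Vdr was at 107 ± 19.2 CPM in kidney and 177 ± 54.2 in intestine. Epo (erythropoietin) did not exceed 0.104 CPM in any kidney and did not pass the filter. Ace was at 8.71 ± 5.78 CPM in kidney and 448 ± 276 in intestine. Egf, Fgfr1, Agtr1a and Nr3c2 were not higher than in each tissue. None of 10 genes of gluconeogenesis and ammonia production was enriched or higher than in each tissue. Of all genes 1.70% and 4.12% were, so 0 in a list this short says little. The median of their smallest log2 fold change was -1.75 in this list and -1.77 over all genes. G6pc was at 267 ± 131 CPM in kidney and 1204 ± 799 in liver, and Slc38a3, the glutamine carrier of the proximal tubule, at 111, 12.7, 89.8, 22.7 and 33.0 CPM and 674 ± 117. Liver was closest for 6 of the 10, Pck1, Fbp1, Glud1, G6pc, Slc2a2 and Slc38a3, while muscle was closest for Got1 and Got2 and pancreas for Pck2.

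Genes lower in kidney than in each other tissue numbered 55. The 10 with the largest gap among those at 10 CPM or more in every other tissue were Mical2, Npc1, Ankh, Ssh2, Kpna1, Ppp1cb, Ppp2r5c, Ddx6, Ube2j1 and Jak1. Npc1, the lysosomal cholesterol exporter gene, was at 7.94, 10.6, 9.81, 8.44 and 8.15 CPM in kidney and at least 20.2 on average in each other tissue (log2 fold change -1.17 ± 0.15 against intestine, adjusted p = 1.16e-07). Mical2, which oxidises actin, was at 1.91, 15.9, 4.76, 5.35 and 3.68 CPM and at least 19.0 elsewhere (log2 fold change -1.63 ± 0.38 against liver, adjusted p = 4.82e-04). Jak1, a cytokine receptor kinase gene, was at 33.9, 66.0, 50.9, 50.2 and 35.2 CPM (log2 fold change -0.69 ± 0.18 against intestine, adjusted p = 0.0018). Npc1 was low in all 5 kidneys alike, and Mical2 was highest in kidney 2. The count of 55 was 0 with scaling by library size alone, 85 without kidney 2 and 29 without rat 5.

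Of 10 genes of tubule injury 2 were enriched (20%, against 1.70% of all genes). They were Havcr1 (log2 fold change 4.53 ± 1.25 (SE) over blood, largest adjusted p = 0.00255) and Spp1 (log2 fold change 4.02 ± 0.83 (SE) over pancreas, largest adjusted p = 1.10e-04), both with the values of kidneys 2 and 4 far above the other 3. Without kidney 2 the Havcr1 log2 fold change was 2.22 (adjusted p = 0.0559) and without rat 4 it was 3.86 (adjusted p = 0.0719), neither past the threshold. Havcr1 in kidneys 1, 3 and 5 lay between 1.78 and 4.36 CPM and overlapped blood, in which it averaged 1.68. Timp1 was higher than in each tissue by less than 4-fold, and not without kidney 2 (log2 fold change 0.34, adjusted p = 0.476). It also lost that call without rat 2, 3, 4 or 5 (adjusted p = 0.0509 to 0.573). Clu, Vim, Lcn2, Vcam1, Sox9, Krt18 and Krt20 were not higher than in each tissue. Clu (clusterin) was at 129.5, 699.7, 80.1, 148 and 75.1 CPM and Vim (vimentin) at 46.0, 212, 36.9, 62.8 and 51.1, highest in kidney 2. The spread between kidneys was wider for enriched genes than over all genes. The coefficient of variation had a median of 41.8% over 187 enriched genes, against 28.4% over all 6140 genes with at least 10 CPM, enriched ones included. It was not recomputed without kidney 2. Leaving out kidney 2 alone gave 307 enriched genes, 275 of them among the 281.

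The same comparison was made in rats that did not enter it. In 5 obese ZDF rats given pFUS for 7 weeks, 320 of 16362 genes were enriched (1.96%), and 253 were shared, 90.0% of the list of the obese controls and 79.1% of the other. In 4 control rats of another model, DIO-stz (diet-induced obesity and streptozotocin; 2 females and 2 males), 286 of 16697 were enriched (1.71%), and 211 were shared, 75.1% and 73.8%. Of the 281 genes, 203 (72.2%) were enriched in all 3 cohorts and 20 in neither other one. By segment, the genes enriched in all 3 cohorts were 4 of 4 for podocytes, 10 of 10 for S1 and S2, 4 of 4 for S3, 9 of 9 for the thick limb, 4 of 4 for the distal convoluted tubule, 2 of 3 for the connecting tubule, 6 of 8 for principal cells and 13 of 13 for intercalated cells. The DIO-stz folds of the most enriched genes were smaller, and 1 pancreas library went with this. Slc34a1 had 391 counts in pancreas 3 of that cohort and 0 in the other 3 pancreas libraries, and Umod had 276 against 4, 0 and 0. Pancreas was the closest tissue for 31 of 36 tested genes among the 39 with a log2 gap over 8 in the obese controls, and for 7 of 37 without rat 3. The median of their smallest log2 fold change was 7.23 with rat 3 and 10.46 without it, against 10.23 in the obese controls. The source of these counts was not tested.

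**Figure D5:**
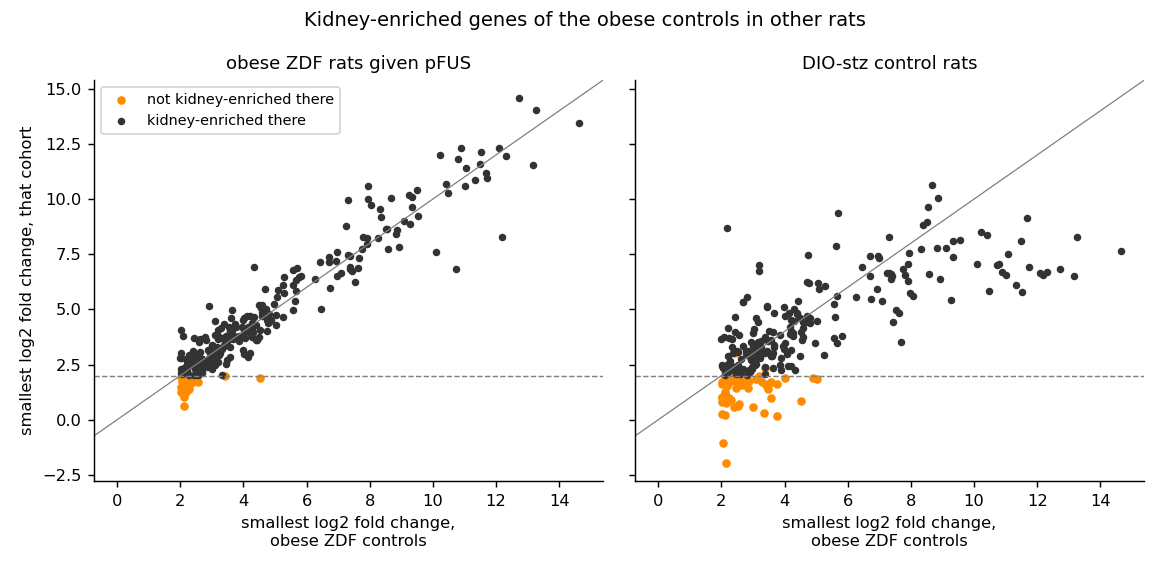
Smallest of the 6 log2 fold changes of the 281 enriched genes in obese ZDF controls (horizontal) and in obese ZDF rats given pFUS (left) or DIO-stz controls (right). Points near the diagonal have like gaps; in the right panel the genes with the widest gaps lie below it, and orange points were not enriched in that cohort.

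Few kidney genes were called between pFUS and control in obese rats. Between 5 treated and 5 control kidneys, 13 of 13359 genes tested were lower with pFUS (0.0973%) and 0 higher (edgeR's quasi-likelihood test, adjusted p under 0.05), with 962 at an unadjusted p under 0.05, and DESeq2 called 97 genes, 12 higher and 85 lower. The edgeR count in either direction was 5 without treated kidney 6 or 10, 8 without 7 or 8 and 7 without 9. With each treated or control kidney left out in turn it ran from 5 to 19. On simulated counts of this comparison, the edgeR test called 35% of genes changed 2-fold and 96% of those changed 4-fold, over 13359 genes. The changed genes were drawn from those above 5 CPM, so lower genes were not covered. Of the 281 kidney-enriched genes 1 was called, F3, the tissue factor gene (log2 fold change -1.61 ± 0.20, adjusted p = 0.00771), and no member of the 10 segment lists was. Umod differed by 0.22 ± 0.37 and Slc34a1 by -0.09 ± 0.36 on the log2 scale. Havcr1, with lowest, median and highest values of 1.78, 4.23 and 336 CPM in controls and 3.46, 4.81 and 21.1 with pFUS, did not pass (log2 fold change -3.40 ± 1.33, adjusted p = 0.665). The summed S1 and S2 list ran from 4341 to 16518 CPM in control and from 9913 to 10936 in treated kidneys, on a scale set over all kidneys of the series.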

How the data were processed

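The authors deposited RSEM expected counts per gene for 287 libraries (32623 genes), made with STAR 2.5.3a on Rnor_6.0 as the submitters' notes on processing list them, with no annotation release stated there. Per the labels' protocols, pancreas was prepared with a stranded total RNA kit and the other tissues used here with a stranded mRNA kit. Values were whole numbers and were used as deposited.

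The 35 libraries were fitted in edgeR 4.0.16 (R 4.3.3, limma 3.58.1) with TMM factors, filterByExpr by tissue at a minimum count of 10 (16514 genes kept), robust quasi-likelihood F tests, tissue plus animal number, and Benjamini-Hochberg adjustment over all genes tested in each of 6 contrasts. The SE of a log2 fold change is its size divided by the square root of F. Where a tissue had 0 counts, the fold is a lower bound against 3 counts summed over its 5 libraries. Replicates are different rats. DESeq2 1.42.0 and the other settings are alternatives. The scripts were tested on simulated data, where 99% of genes raised 8-fold in kidney were called enriched, 3% of those raised 4-fold and 0% of unchanged genes, over 16231 genes. These genes were drawn from those above 5 CPM on average over tissues, with equal levels in the other tissues. Genes near 0 elsewhere and genes low in kidney were thus not covered. Promoters were searched in Python 3.11.15.

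The members and lists were chosen with earlier results of these data known. Of 287 listed symbols 10 were not in the file. Genes named were allowed by a written rule: list and family members, the 20 enriched genes with the widest gap, the 10 lower genes with the largest gap, and the leading markers of other cell types. Exceptions are stated, counts over lists include members that are not named, and some items are not reported here. Tissues were matched by the number in their titles, taken as the number of the rat. Of 30 kidney and other-tissue pairs, 9 deviated together with a correlation over 0.1 (median 0.05, range -0.49 to 0.44). The library of the same number was the best match in 10 of the 30. These correlations alone do not settle whether equal numbers mean the same rat. A transcript that separated the rats (ENSRNOG00000030106) went against the number of blood 5 and intestine 5, which were also left out as an alternative. No libraries of the 70 pairs compared within a tissue were identical. Intervals and limits cover counting error only.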

Additional observations from a re-analysis of the deposited data

Results flagged for a closer look

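Kidney 2 was far from the other 4 kidneys for 15 of the 26 values that met Dixon's 95% criterion among 269 groups of 5 kidney values tested, all in TMM-scaled CPM. The criterion marks about 1 group in 20 where values are normal and groups independent. Here the CPM were not logged, 25 of the 26 values were high, and list sums share genes with single-gene groups. The number expected by chance is therefore not known. The values of kidney 2 are given with the range of the other 4 kidneys. Injury genes came first, with Spp1 (6144, others 76.9 to 1359), Havcr1 (334, others 1.78 to 46.0), Lcn2 (73.7, others 1.97 to 11.1), Clu (699.7, others 75.1 to 148), Vim (212, others 36.9 to 62.8) and Timp1 (29.2, others 2.42 to 7.13), and the summed tubule injury list was at 7553 against 238 to 1662. The carrier gene Slc34a2 (211, others 6.44 to 51.6), the prostaglandin receptor gene Ptger3 (21.1, others 6.54 to 10.4) and the activin antagonist gene Fst (7.93, others 0.311 to 1.08) were also high there. So were Ankh (21.5, others 5.50 to 8.50), Mical2 (15.9, others 1.91 to 5.35), Cyp7b1 (4.27, others 0.986 to 1.82) and Cldn14 (0.315, others 0 to 0.0318). The V-ATPase subunit gene Atp6v1d (34.3, others 50.2 to 55.5) was the single low value. Its part in the counts of enriched genes is given by the values without it.

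The other 11 values were spread over kidneys 1, 3, 4 and 5, all high. Kidney 1 was high for Pck2 (16.3, others 9.03 to 11.0), Cldn3 (15.0, others 3.41 to 5.52), Krt18 (13.1, others 6.08 to 7.96) and Pnlip (0.0555, others 0 to 0). Kidney 3 was high for Slc17a3 (127, others 60.4 to 76.2) and Ckm (0.0356, others 0 to 0), kidney 4 for Pou3f3 (16.5, others 13.9 to 14.6), Hnf4g (5.06, others 1.57 to 2.45) and Aqp12a (0.0637, others 0 to 0) and kidney 5 for the podocyte genes Synpo (30.8, others 16.5 to 17.9) and Tcf21 (23.2, others 7.96 to 11.7). Pnlip, Ckm and Aqp12a rest on a few reads in 1 library.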

How the results depend on the processing

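With each rat left out in turn, the enriched genes numbered 268 to 308 against 281, those higher than each tissue 576 to 687 against 680, and those lower than each tissue 29 to 69 against 55. Podocyte genes enriched were 4 to 7. Kidney genes called in either direction between pFUS and control were 5 to 19, with each treated or control kidney left out in turn. In total 332 counts were recomputed, and 22 moved by more than 1.5 times. With a log2 threshold of 1, 518 genes were enriched, among them 9 podocyte, 2 glomerular stroma and 16 S1 and S2 genes, and with a threshold of 3, 181, with 2 of S3. Scaling by library size alone gave 405 enriched genes (262 shared with the 281), 1116 higher than each tissue, 0 lower than each, and 2 genes each of the glomerular stroma and thin limb lists. The count lower than each tissue was 29 when only the tissues compared were fitted, 85 without pancreas, and 85 without kidney 2, an alternative chosen after seeing the data. DESeq2 called 97 kidney genes between pFUS and control.

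Enriched genes numbered 278 with RLE factors, 310 without a filter on low counts, 241 with DESeq2 (237 shared) and 281 without transcripts that lack a poly(A) tail. DESeq2 left 12 named enriched genes above its threshold, for example Foxi1 (adjusted p = 0.213), Atp6v1b1 (0.0835), Cldn16 (0.221), Aqp6 (0.154) and Avpr2 (0.302). Of 72 named enriched genes 5 lost the call without 1 rat or kidney 2, namely Havcr1, Esrrb (log2 fold change 1.74 without rat 3), Irx3 (1.71 without rat 3, 1.76 without rat 5), Trpv5 (1.98 without rat 2, 1.95 without kidney 2) and Rhbg (1.94 without rat 1 or rat 3). Of 24 named genes higher by less than 4-fold, 10 lost the call in this way, with the largest adjusted p at 0.172 for Slc26a7, 0.0532 for Slc5a8, 0.262 for Aqp7, 0.573 for Timp1, 0.0794 for Slc7a9, 0.0613 for Emx1, 0.146 for Plat, 0.0645 for Slc5a12, 0.0629 for Cubn and 0.26 for Ggt1.

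The replicate block is the animal number. Without it 283 genes were enriched (275 shared), 315 in the pFUS rats and 282 in the DIO-stz rats, and Atp6v0c was at 0.0056. Without blood 5 and intestine 5, whose animal number is in doubt, 285 were enriched (275 shared).

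Of 3442 recomputed values of 231 named genes, 71 changed sign, in genes without a call of higher than each tissue. The cause was not tested. Their smallest log2 fold changes follow. Under scaling by library size alone they were Cldn8 1.89, Atp6v0e1 1.62, Slc34a2 0.13, Ptpro 0.40, Atp6v1g1 0.33, Hnf4a 0.50, Aqp1 2.05, Slc7a8 0.65, Fgfr1 0.052, Atp6v0d1 -0.28, Fbp1 0.57, Vim 0.56, Slc3a2 0.92, Slc12a4 0.53, Pck1 0.97, Slc17a3 0.81 and Irx1 0.77. Under RLE factors they were Gatm -0.0094, Esrrg -0.046, Atp6v0d1 -0.067, Gata3 -0.066 and Sim1 -0.068, and under DESeq2 Gatm -0.0095, Esrrg -0.050, Fst -0.023, Atp6v0d1 -0.067, Gata3 -0.087, Pck1 0.020 and Sim1 -0.087. When only the tissues compared were fitted they were Gatm -0.034, Esrrg -0.015, Slc8a1 -0.015, Atp6v0d1 -0.056, Sim1 -0.020 and Pou3f3 0.020. Without pancreas, the closest tissue of several, they were Cldn8 5.96, Atp6v0c 0.0075, Slc7a8 0.78, Fgfr1 0.36 and Pck2 0.13. With each rat or kidney 2 left out the ranges were Esrrg -0.0095 to 0.21, Atp6v0c -0.27 to 0.18, Atp6v1f -0.43 to 0.053, Fst -1.22 to 0.50, Aadat -0.00086 to 0.56, Lcn2 -0.21 to 1.68, Vcam1 -0.48 to 0.16, Slc12a7 -0.15 to 0.094, Atp6v0d1 -0.25 to 0.25, Gata3 -0.070 to 0.23, Slc12a4 -0.29 to 0.0035, Atp6v0b -0.24 to 0.042, Pck1 -0.45 to 0.16, Irx1 -0.82 to 0.065, Sim1 -0.33 to 0.40 and Pou3f3 -0.13 to 0.028.

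The 5 rats limit the precision. Genes near 1 CPM rest on few reads, and a fold against 0 counts is bounded by the depth of the limiting tissue, most often blood.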

Other observations

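Several abundant enriched genes lay outside the segment lists and were picked after their values were seen, so they carry no test of a theme. Gpx3, the plasma glutathione peroxidase made by proximal tubule cells, was at 15643, 2725, 9946, 7441 and 10602 CPM (log2 fold change 6.27 ± 0.61 (SE) over muscle). Cyp4a2, a fatty acid hydroxylase gene, was at 4601, 2424, 4973, 2605 and 1519.7 CPM (log2 fold change 2.44 ± 0.41 (SE) over liver), and Hao2, a peroxisomal hydroxy acid oxidase gene, at 2164, 796, 1416, 2129 and 1541 (log2 fold change 3.37 ± 0.39 (SE) over liver). Kidney 2 was lowest for Gpx3, kidney 5 for Cyp4a2 and kidney 2 for Hao2. The lysosomal protease genes Lgmn (legumain) and Ctsa averaged 819 ± 181 and 782 ± 298 CPM (SD, n = 5), and the glutathione synthesis gene Gclc 557 ± 416. Dao, the D-amino acid oxidase gene, averaged 343 ± 179, and Acy1, an aminoacylase gene, 398 ± 285. The folate receptor gene Folr1 averaged 188 ± 69.7 and Dab2, an endocytic adaptor of megalin, 123 ± 30.4. Cltrn (collectrin) averaged 287 ± 87.4 CPM (log2 fold change 5.06 ± 0.46 (SE) over pancreas). Among secreted products, Plau (urokinase) averaged 229 ± 89.0, Mgp (matrix Gla protein) 211 ± 205, Bmp7 48.8 ± 13.4 and Fgf1 61.1 ± 14.2. Nox4, a superoxide-producing oxidase gene, averaged 43.3 ± 22.0.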
